A study of Mus musculus with 4 samples.

Results

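The genes described here are 38 mouse genes whose use is largely restricted to leukocytes, and they serve as a purity check on chromatin from colonic organoids, which are cultures of epithelial cells. They were chosen by name, with earlier results of these data known, out of 21631 protein-coding genes on the autosomes and X. They comprise 14 genes of T and NK cells, 5 of B cells, 11 of myeloid cells and 8 used across leukocytes. Chromatin accessibility was measured by bulk ATAC-seq, in which the transposase Tn5 inserts adapters into open DNA. The 4 libraries came from organoids of wild-type mice with chronic colitis or of healthy controls, and organoids of each history were treated for 24 h with 10 µM T-5224, which inhibits AP-1, or with 0.1% DMSO. The 4 groups were colitis with T-5224, colitis with DMSO, control with T-5224 and control with DMSO, with 1 library each. All organoids were grown with Wnt, EGF, Noggin and R-spondin, frozen after treatment and thawed before nuclei were taken. The labels used here name neither strain nor age. All 4 libraries carry the same batch label, and the library names give both colitis libraries one code and both control libraries another.

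The measurements were 1 deposited peak list for the series, in mm10 coordinates, with no value for a single library. No treatment or disease history could therefore be compared, there are no replicates, and no test was run. The labels do not say which of the libraries were used for calling. Each record holds a called region, a summit (the position of highest signal) and the authors' fold enrichment at the summit over an expected background. The list held 113404 regions and 157922 summits. The background implied by the fold values was a pileup of 7.63 at any base, and the lowest called summit had a pileup of 17, or 2.09-fold. The depth of each library is unknown. Intervals in brackets are exact Poisson 95% intervals of the pileup and cover counting error only. A gene without a summit did not pass the peak caller in this list, which does not show that its chromatin was closed. In a bulk list, few cells with a place open and a small degree of opening in every cell cannot be told apart.

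As background, leukocytes arise from blood stem cells, and a small set of factors, among them PU.1 (Spi1), Ikaros (Ikzf1) and Pax5, sets up their gene programmes. In the colon, leukocytes live in the lamina propria and between epithelial cells, and their number rises in colitis. Organoid culture starts from crypts and supplies epithelial growth factors, so lymphocytes and macrophages are not part of the intended culture. The receptor genes of these cells are therefore widely used to look for carry-over of immune cells.

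In this list the leukocyte-restricted genes had a smaller share with a summit than all protein-coding genes, and a lower median of the strongest fold per gene. A summit lay inside the gene or within 1 kb of it in 19 of 38 members, where 74.5% of all protein-coding genes had one. A summit lay within 1 kb of an outer end in 9 members, against 64.3% of all genes. The median strongest fold over the 38 members was 1.28, counting a member without a summit as 0, against 17.4 over all protein-coding genes. A value of 10-fold or more was found in 7 members, against 58.7% of all genes, and 4 members lay above the median of all genes. Taken summit by summit the gap was small, with a median of 4.29-fold over the 47 member summits, against 4.87-fold over all summits of the list. The members' genes and their flanks held 44.2 summits per Mb, against 102 over all protein-coding genes.

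The members had a median length of 14726 bp, against 17329 bp over all protein-coding genes. Of the 14 members under 10 kb, 4 had a summit, where 52.3% of protein-coding genes of that length did. Of the 19 members between 10 and 50 kb, 12 had one, against 84.2%. Of the 5 members of 50 kb or more, 3 had one, against 91.7%. The members' share was the lower in each length class.

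The samples are labelled colonic epithelium, and markers of that tissue had strong summits. In a list of 16 colonic epithelium genes, chosen with earlier results of these data known, each had a summit within 1 kb of an outer end. Their strongest summits inside the gene or within 1 kb had a median of 49.3-fold. The highest were the epithelial factor Elf3 with 79.8-fold (73.9 to 86.0), the tight junction gene Cldn7 with 61.3-fold, the keratin gene Krt8 with 59.1-fold, Tspan8 with 58.7-fold and Cldn3 with 57.6-fold. The lowest of the 16, Cdx1, lay at 21.0-fold (18.0 to 24.3), and Spi1 and Cd68 were the leukocyte-restricted genes above that value. Of 12 stromal and vascular genes, 11 had a summit, the median of the list was 5.68-fold, and Col1a1 was the one gene above 10-fold. After Col1a1 with 16.3-fold the strongest were Pdgfra with 8.81-fold, Cdh5 with 8.35-fold, Acta2 with 6.96-fold and Myh11 with 6.84-fold. Whether any summit at a leukocyte gene came from leukocytes or from epithelial cells was not tested.

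**Figure D1:**
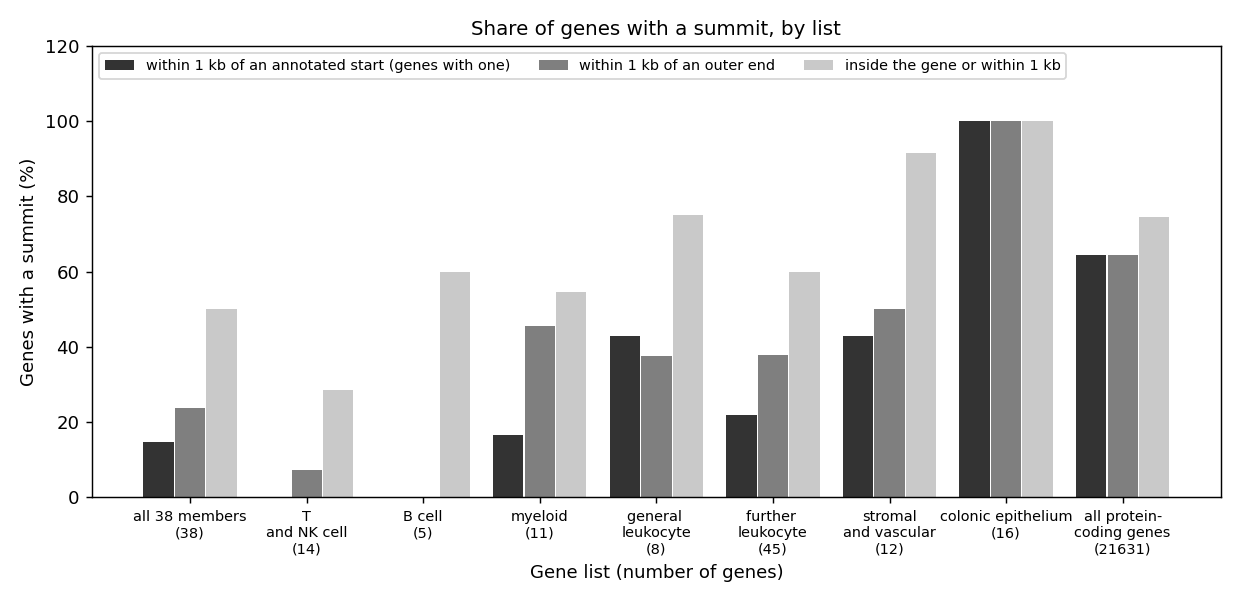
Bars give the percentage of genes in each list with a summit within 1 kb of an annotated start (over the genes with an entry in the start table), within 1 kb of an outer gene end, or inside the gene or within 1 kb. The members reach 4 of 27, 9 of 38 and 19 of 38, the T and B cell genes have none at a start, and every colonic epithelium gene with an entry has one.

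A summit inside the gene or within 1 kb was found in 4 of 14 T and NK cell genes, 3 of 5 B cell genes, 6 of 11 myeloid genes and 6 of 8 general leukocyte genes, against 74.5% of all protein-coding genes, so the general leukocyte genes were at the share of all genes. At an outer end the counts were 1 of 14, 0 of 5, 5 of 11 and 3 of 8 in the same order of classes, against 64.3% of all genes. The highest median strongest fold was that of the general leukocyte genes, 4.35, followed by the B cell genes with 2.78, the myeloid genes with 2.55 and the T and NK cell genes with 0. The myeloid genes held 22 of the 47 member summits, the general leukocyte genes 12, the T and NK cell genes 7 and the B cell genes 6. With 5 to 14 genes a class and no replicates, these differences are descriptions of 1 list.

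Among T and NK cell genes, the surface receptors were without a summit of their own. Cd3e, Cd3d and Cd3g, the signalling chains of the T cell receptor, had none, nor had the coreceptor genes Cd8a and Cd8b1, the adhesion receptor gene Cd2 or Cd5, an inhibitory receptor of T cells. The killer cell genes Prf1 (perforin), Gzmb (granzyme B) and Nkg7, which encodes a protein of cytotoxic granules, had none either. Cd4, the coreceptor of helper T cells, had 8.81-fold (6.96 to 11.02), but at a summit 895 bp outside the gene that lies inside the neighbouring gene Gpr162. A further summit of that region, with 4.99-fold, also lay inside Gpr162, so neither can be given to Cd4 alone.

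The T cell genes with a summit in the gene body were those of the intracellular signalling chain and of a lineage factor. Lck, the kinase that phosphorylates the CD3 chains, had the highest value of its class, 19.6-fold (16.8 to 22.8), in a region of 2033 bp at chr4:129555274-129557306. That summit lay 1731 bp into the gene from an annotated start at 129558372, and a separate summit of 9.62-fold lay between that start and the other annotated start at 129573641. Neither of the annotated Lck starts had a summit within 1 kb. Zap70, the kinase recruited to phosphorylated CD3 chains, had 3.01-fold (1.99 to 4.39) inside the gene. Tbx21, the T-bet factor of type 1 helper T cells, had 4.64-fold (3.33 to 6.30), 13402 bp from its start. Lck was the one gene of this class above the median of all genes.

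Among B cell genes, the receptor chains Cd79a and Cd79b had no summit. Pax5, the factor that holds B cell identity, had 4 summits in its 185947 bp. The strongest, 11.1-fold (9.03 to 13.6), lay 6139 bp into the gene from its start, within the annotated noncoding gene 5730488B01Rik, and the others had 3.13, 2.43 and 2.32-fold. Cd22, an inhibitory lectin of B cells, had 3.83-fold (2.65 to 5.35). Ms4a1, which encodes the surface protein CD20, had 2.78-fold (1.81 to 4.12). No B cell gene had a summit at an outer end or at an annotated start. Cd79a had a value of 20.98-fold when the window was widened to 2000 bp. No region was assigned to Cd79a. The strongest summit of that region therefore lay nearer to an end of another protein-coding gene, which was not looked up.

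Among myeloid genes, 4 had a value of 10-fold or more, Csf1r and Mpo had low values and the others had no summit. Spi1, which encodes the master factor PU.1, had the highest value of all 38 members, 25.7-fold (22.5 to 29.3), at chr2:91114953-91115807. This summit lay 466 bp inside the gene at its higher-numbered end, and further summits within the gene had 8.12 and 4.64-fold. No other annotated protein-coding gene had an end within 1 kb of the 3 Spi1 summits. The next one, Mybpc3, had its nearest end 5359 bp from the 4.64-fold summit. The strongest summit lay between that summit and Mybpc3. It was therefore nearer to Mybpc3 than 5359 bp, though more than 1 kb from it. Cd14, the coreceptor for bacterial lipopolysaccharide, was covered over most of its 1752 bp by 1 region with summits of 11.7 (9.55 to 14.2), 10.6 and 9.74-fold. Csf1r, the receptor of macrophage colony-stimulating factor, had 4 summits between 2.32 and 3.71-fold. The one at its lower-numbered end, 31 bp outside the gene, had 3.48-fold, and one of 3.25-fold at the other end lay 774 bp from the neighbour Hmgxb3.

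The lysosomal and granule genes of phagocytes differed from each other. Cd68, which encodes a lysosomal glycoprotein of macrophages, had 21.8-fold (18.8 to 25.1) at a summit 133 bp before its start and 633 bp from an end of the neighbour Eif4a1. It had 5 weaker summits between 2.43 and 4.99-fold over and beside its 1958 bp. Lyz2, the lysozyme gene of macrophages and neutrophils, had none, and Mpo, the myeloperoxidase gene of neutrophil granules, had 2.55-fold (1.62 to 3.84) inside the gene. Adgre1, which encodes the macrophage marker F4/80, had no summit in its 124949 bp. Of 2427 protein-coding genes of 100 kb or more, 7.62% were without one. Csf3r, the receptor of granulocyte colony-stimulating factor, Fcer1g, the shared signalling chain of Fc receptors, and Tyrobp, an adaptor of myeloid receptors, also had none. Csf3r had 28.9-fold when the window was widened to 2000 bp. That summit was not among the regions assigned to Csf3r, the strongest of which had 9.85-fold. Under the assignment rule, the strongest summit of its region therefore lay nearer to an end of another protein-coding gene. Which gene that is was not looked up.

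The Fcgr3 values lay at transfer RNA genes. Fcgr3 encodes an Fc receptor for IgG and had 5 summits, the strongest 20.4-fold (17.5 to 23.6) at chr1:171064249-171065528. All 5 had a tRNA gene within 1 kb, 3 of them inside Fcgr3 and 2 just beyond its end, and none lay within 1 kb of an annotated Fcgr3 start. The strongest summit lay inside the microRNA gene Mir6546, beside the tRNA genes n-TEctc5 and n-TGtcc1. Whether reads are shared between copies of these tRNA genes was not tested.

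Of the 8 genes used across leukocytes 6 had a summit, a share near the 74.5% of all protein-coding genes. Their median strongest fold was 4.35, against 17.4 over all protein-coding genes. Ptprc, which encodes the defining leukocyte protein CD45, had none in its 112898 bp, and Cd48, a ligand of the CD2 family, had none. Coro1a, an actin regulator of leukocytes, had 12.2-fold (9.97 to 14.7) inside the gene and 6.61-fold (5.02 to 8.55) at its start. Vav1, an exchange factor downstream of antigen receptors, had 8.46-fold (6.65 to 10.6) inside the gene and 3.01-fold at its start. Ikzf1, the Ikaros factor of lymphoid development, had 3.01 and 2.67-fold. Laptm5, a lysosomal protein gene, had 4.41-fold, and Cd53, a tetraspanin gene, had 5.10-fold. Cd52, which encodes a small surface glycoprotein, had 4.29-fold at a summit 925 bp outside the gene and 109 bp from the end of the neighbour Crybg2. The annotated start of Crybg2 lay 24161 bp from that summit.

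**Figure D2:**
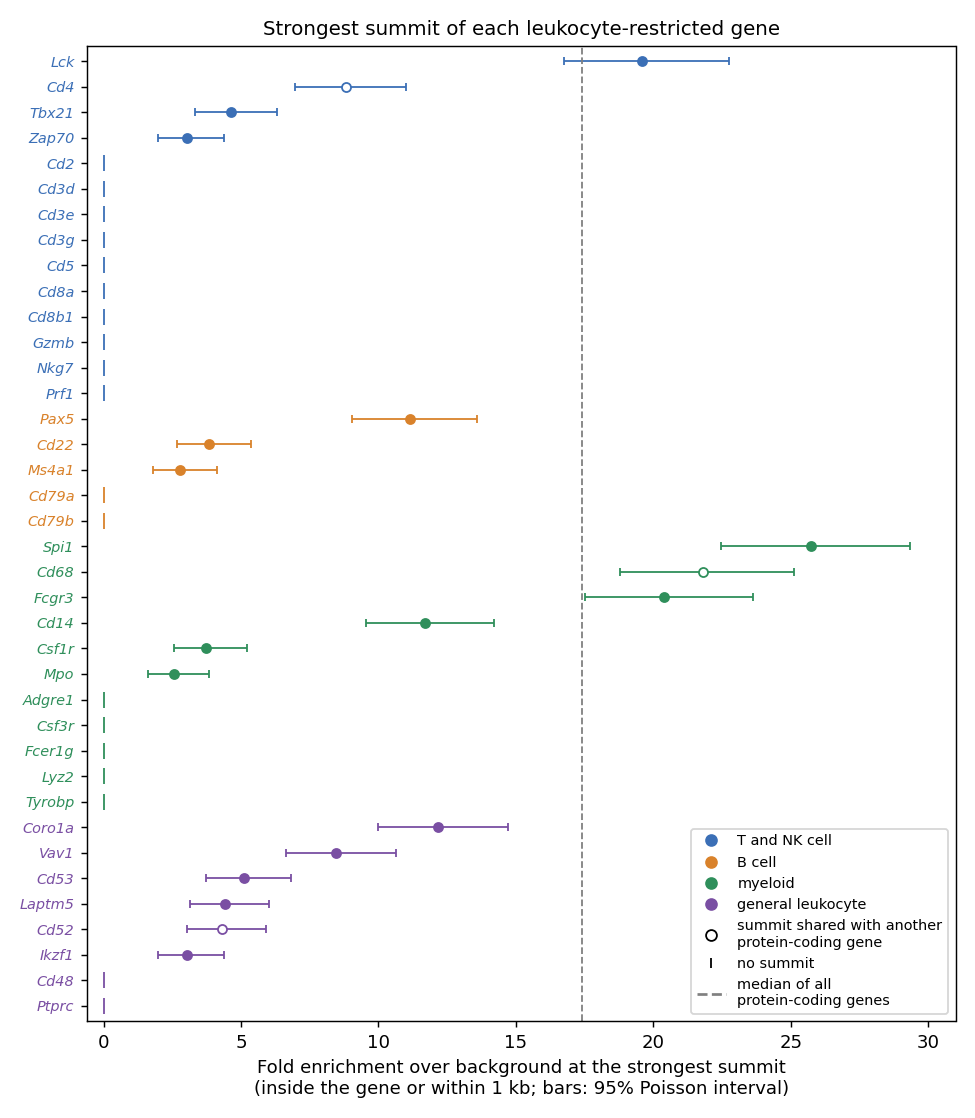
Each row is one leukocyte-restricted gene, and the point gives the fold enrichment at its strongest summit inside the gene or within 1 kb, with the exact Poisson 95% interval; ticks at 0 mark the 19 genes without a summit and open points mark summits shared with another protein-coding gene. Spi1 is highest with 25.7-fold, and Spi1, Cd68, Fcgr3 and Lck are the 4 genes right of the dashed line, the median of 17.4-fold over all protein-coding genes.

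Ends shared with a neighbour touched a few members. An end of Cd4 lay within 1 kb of an end of Gpr162, and the same held for Csf1r with Hmgxb3, Cd68 with Eif4a1 and Tyrobp with Hcst. Tyrobp had no summit, and the end of Hcst lay 130 bp away. Of the 47 member summits, 5 lay inside or within 1 kb of an end of another protein-coding gene. Without these 5 summits, 17 members kept a summit. By class, 3 of 14 T and NK cell genes and 3 of 5 B cell genes kept one. So did 6 of 11 myeloid genes and 5 of 8 general leukocyte genes. The same counts over all protein-coding genes were not made. The strongest summit left at Cd68 had 4.99-fold. Eif4a1, a translation factor gene, has its annotated start at its far end, 6120 bp from the Cd68 summit, where it reached 81.3-fold.

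At annotated starts, where promoters lie, the members had a smaller share with a summit than all protein-coding genes. The RefSeq start table (GRCm38.p6) matched 27 of the 38 members. Cd4, Cd8b1, Cd2, Cd79b, Ms4a1, Spi1, Csf1r, Cd14, Adgre1, Tyrobp and Cd52 had no entry. A summit within 1 kb of a start was found in 4 of the 27, namely Cd68, Coro1a, Vav1 and Ikzf1, against 64.5% of 17274 protein-coding genes with an entry. By class the counts were 0 of 11 T and NK cell genes, 0 of 3 B cell genes, 1 of 6 myeloid genes and 3 of 7 general leukocyte genes. In the colonic epithelium list the count was 13 of 13, and in the stromal and vascular list 3 of 7. Of all 47 member summits, 27 lay inside the member and more than 1 kb from its ends. The same share over all protein-coding genes was not computed, so this count cannot be called particular to the members.

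**Figure D3:**
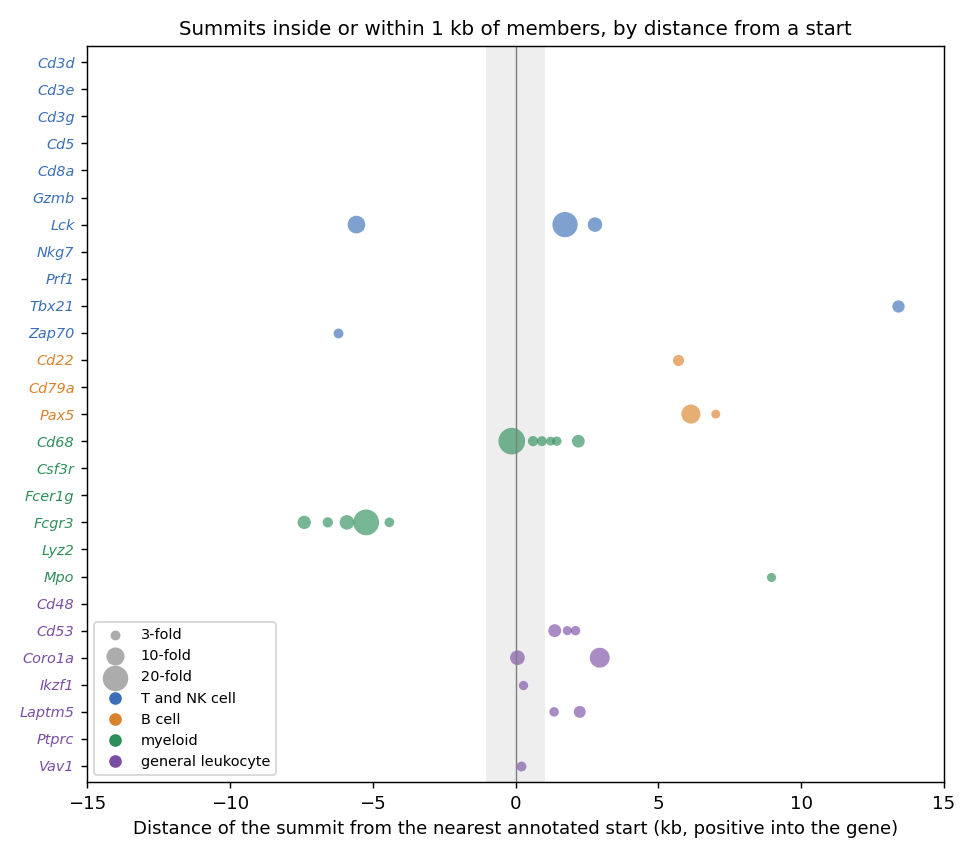
Each row is one of the 27 members with an annotated start, and each dot is a summit inside or within 1 kb of the gene at its distance from the nearest start in kb, drawn to 15 kb, with dot area proportional to fold. Inside the grey band of 1 kb on either side lie summits of 4 genes, Cd68, Coro1a, Ikzf1 and Vav1, and the 21.8-fold summit of Cd68 is the largest of them.

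The sequences below are start windows of the 4 genes with a summit at a start, and of Ptprc and Cd3e, the defining genes of leukocytes and T cells, as windows without one. Each runs from 250 bases before to 50 bases after the annotated start in the RefSeq table (GRCm38.p6), 5′ to 3′ on the gene's strand. Capitals mark matches on either strand to the AP-1 motif TGANTCA, the ETS motif CCGGAAGT, the PU.1 motif GAGGAAGT and the GC box GGGCGG, which did not overlap each other in these windows.
Cd68 (chr11:69666121-69666420, minus strand): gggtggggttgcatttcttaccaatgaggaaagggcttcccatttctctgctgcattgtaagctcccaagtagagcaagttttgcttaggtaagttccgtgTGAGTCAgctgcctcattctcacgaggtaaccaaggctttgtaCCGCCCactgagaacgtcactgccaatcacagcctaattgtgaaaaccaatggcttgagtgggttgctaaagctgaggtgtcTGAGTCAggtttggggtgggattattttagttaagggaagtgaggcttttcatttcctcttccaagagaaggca
Coro1a (chr7:126704767-126705066, minus strand): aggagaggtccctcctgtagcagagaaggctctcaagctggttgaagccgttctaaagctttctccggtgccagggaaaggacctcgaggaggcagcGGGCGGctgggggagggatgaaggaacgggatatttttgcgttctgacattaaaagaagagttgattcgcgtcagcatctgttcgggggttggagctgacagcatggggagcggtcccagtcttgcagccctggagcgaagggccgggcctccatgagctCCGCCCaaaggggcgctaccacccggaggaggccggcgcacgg
Vav1 (chr17:57278850-57279149, plus strand): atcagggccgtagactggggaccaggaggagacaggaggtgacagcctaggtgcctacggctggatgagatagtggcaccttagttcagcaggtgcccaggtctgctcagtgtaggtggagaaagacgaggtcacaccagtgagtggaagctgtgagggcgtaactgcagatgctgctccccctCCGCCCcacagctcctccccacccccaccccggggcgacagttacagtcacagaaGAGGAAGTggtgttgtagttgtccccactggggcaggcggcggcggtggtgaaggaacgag
Ikzf1 (chr11:11685675-11685974, plus strand): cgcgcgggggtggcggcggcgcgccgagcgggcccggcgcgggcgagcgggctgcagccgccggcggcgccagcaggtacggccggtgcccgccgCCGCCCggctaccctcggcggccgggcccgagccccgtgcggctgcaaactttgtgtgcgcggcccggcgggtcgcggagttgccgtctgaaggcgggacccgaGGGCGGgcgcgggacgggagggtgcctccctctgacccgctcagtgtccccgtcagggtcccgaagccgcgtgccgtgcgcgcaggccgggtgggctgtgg
Ptprc (chr1:138175256-138175555, minus strand): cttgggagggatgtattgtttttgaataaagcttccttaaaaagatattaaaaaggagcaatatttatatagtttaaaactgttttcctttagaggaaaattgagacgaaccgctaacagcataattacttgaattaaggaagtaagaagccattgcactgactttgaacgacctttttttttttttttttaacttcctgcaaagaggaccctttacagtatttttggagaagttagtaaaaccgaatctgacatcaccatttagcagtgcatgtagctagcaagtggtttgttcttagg
Cd3e (chr9:45009562-45009861, minus strand): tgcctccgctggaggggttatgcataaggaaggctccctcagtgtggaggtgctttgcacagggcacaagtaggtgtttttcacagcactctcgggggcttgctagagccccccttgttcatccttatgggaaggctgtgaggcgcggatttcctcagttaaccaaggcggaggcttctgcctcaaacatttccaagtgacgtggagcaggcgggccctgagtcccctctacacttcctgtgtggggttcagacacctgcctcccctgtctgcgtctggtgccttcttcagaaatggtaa

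The Cd68 window was covered over all 300 bases by the called region, and its 21.8-fold summit fell at base 118 of the window, 10 bases after the first of 2 AP-1 matches (bases 102 to 108). The second AP-1 match lay at bases 227 to 233. An AP-1 match was present in 7.04% of the 21045 start windows of protein-coding genes and in 2 of the 34 member windows, those of Cd68 and Gzmb. The called region at the Coro1a start covered 267 bases of that window, which holds 2 GC box matches. At Ikzf1 the region covered the last 16 bases, and at Vav1 it began after the window. The Ptprc and Cd3e windows held none of the 4 motifs. The PU.1 motif was found in 4 member windows, those of Cd5, Cd53, Mpo and Vav1, against 3.15% of all windows, and the ETS motif in that of Cd48, against 5.20%. A match is a run of letters and not a measured binding site.

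The members' start windows were poor in CpG. The median ratio of observed to expected CpG was 0.256 over the 34 windows, against 0.574 over all protein-coding windows. The colonic epithelium windows had a median of 0.287, and all 16 of them had a summit within 1 kb, against 5 of the 34 member windows. Among windows with 5 or fewer CpG, 1 of 19 member windows had a summit within 1 kb, against 19.3% of all protein-coding windows. Among windows with more, 4 of 15 member windows had one, against 84.2%. The Ikzf1 window was the richest of the members, with a ratio of 1.06 and a GC content of 81.3%. The Pax5 and Tbx21 windows, with ratios of 0.882 and 0.754, had no summit within 1 kb.

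**Figure D4:**
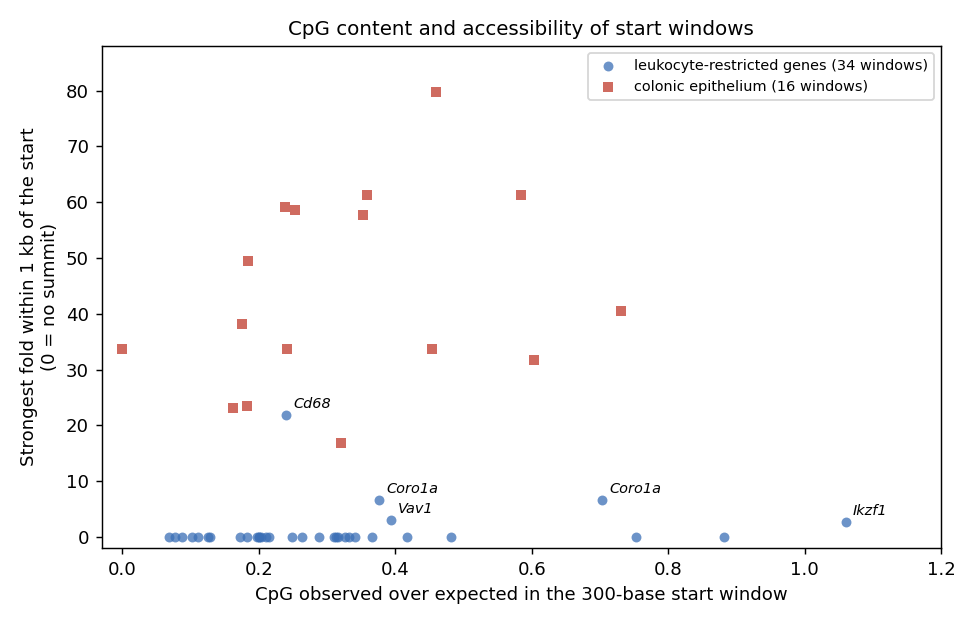
Each point is one start window, with the ratio of observed to expected CpG on the x axis and the strongest fold within 1 kb of the start on the y axis (0 without a summit). The 34 windows of leukocyte-restricted genes (circles) lie at 0 apart from 5 windows, those of Cd68, Coro1a and Vav1 and 1 of the 2 Ikzf1 windows, whereas the 16 colonic epithelium windows (squares) of similar CpG content lie between 16.8 and 79.8-fold.

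Away from the ends of protein-coding genes, 69 regions had a member as their nearest protein-coding gene end within 100 kb, 24 of them inside the member. These 24 are also among the 37 regions with a summit in or near a member, so the 2 sets together hold 82 regions. At least 1 such region was assigned to 23 of 38 members, against 69.6% of all protein-coding genes, and the median was 1 per gene, against 2. The T and NK cell genes had 24 such regions over 8 of 14 genes, the B cell genes 7 over 3 of 5, the myeloid genes 21 over 6 of 11 and the general leukocyte genes 17 over 6 of 8. Their median fold was 4.29, against 4.64 for all regions assigned in this way. The colonic epithelium genes, by comparison, had a median of 8.5 such regions per gene.

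The strongest of these regions lay before Vav1. It spanned chr17:57274640-57277305, held 3 summits and reached 44.6-fold (40.3 to 49.3), above 97% of all regions, 3606 bp from the Vav1 start. The next protein-coding gene, Trip10, had its nearest end 11797 bp from the summit. A further 3 regions outside Vav1 had 8.12 to 9.74-fold. The next strongest, 26.7-fold (23.3 to 30.3), lay 6297 bp from Fcgr3, again within 1 kb of a tRNA gene, n-TGgcc4. Of the 10 regions assigned to Fcgr3, 5 had a tRNA gene end within 1 kb.

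Regions at a distance were also assigned to T cell genes and to other members, with or without a summit of their own. Cd2 had 9 regions, none inside the gene, and the strongest, 19.9-fold (17.1 to 23.1), lay 63778 bp away at chr3:101211715-101213543. No other protein-coding gene end lay within 100 kb of that summit. Zap70 had a region of 13.7-fold (11.3 to 16.4) 2049 bp beyond its end, at chr1:36784567-36785746, where the next protein-coding gene, Tmem131, was 7319 bp away. Cd3e had 2 such regions with 6.96 and 5.10-fold, and Cd5 had 2 with 7.77 and 4.41-fold, inside the noncoding gene A430093F15Rik. Ptprc had 3, outside the gene, between 3.48 and 6.14-fold, and Csf3r had 3, up to 9.85-fold.

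**Figure D5:**
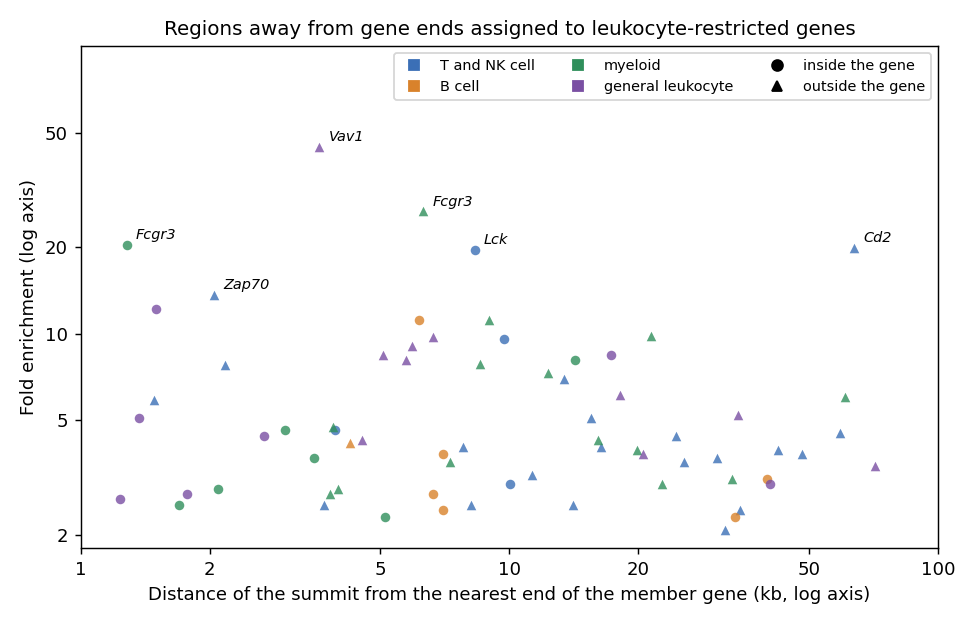
Each point is one of the 69 regions assigned to a member, placed by the distance of its summit from the nearest end of that member and by its fold enrichment, both on log axes; circles lie inside the gene and triangles outside. The region before Vav1 stands highest with 44.6-fold, followed by regions at Fcgr3, Cd2 and Lck.

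A total of 11 members had neither a summit nor an assigned region: Cd3d, Cd3g, Cd8a, Cd8b1, Nkg7, Cd79a, Cd79b, Adgre1, Lyz2, Fcer1g and Cd48. That is 5 T and NK cell genes, 2 B cell genes, 3 myeloid genes and 1 general leukocyte gene, while 18.9% of all protein-coding genes had neither. A further 8 members had an assigned region but no summit of their own, among them Ptprc and Cd3e.

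A second list of 45 leukocyte genes that are not members was examined in the same way. A summit inside the gene or within 1 kb was found in 27, one at an outer end in 17, and one at a start in 7 of the 32 genes with an entry, against 74.5%, 64.3% and 64.5% of all protein-coding genes. Of the 45, 32 (71.1%) had at least 1 assigned region away from ends, against 69.6% of all genes. The median strongest fold was 2.90, against 17.4 over all protein-coding genes. Among the strongest were Mrc1, a mannose receptor of macrophages, with 55.8-fold (50.9 to 61.0) inside the gene and no summit at its ends, and Itgax, an integrin chain of dendritic cells, with 33.3-fold (29.5 to 37.3) at an end but none at its start. Cd247, a signalling chain of the T cell receptor, had 14.3-fold, and Btk, the kinase of B cell receptor signalling, had 12.98-fold. Ends shared with a neighbour were not examined for this second list. The defining genes Foxp3 of regulatory T cells, Cybb of the phagocyte oxidase and Elane of neutrophil granules had none.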

How the data were processed

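Bulk ATAC-seq libraries of mouse colonic organoids, 1 in each of 4 groups, were represented by 1 peak list. Per the submitters' processing notes, Bowtie2, MACS2 and mm10 were used, and no version is named. The authors' score equalled the integer part of 10 × −log10 q in 100% of records. The deposited fold is a linear ratio over background, and the deposited −log10 q was never below 1.51. Multiplying each fold by a single constant gave whole pileups (tolerance 0.01, 100% of records). It is not stated whether these count reads or fragments, and duplicates would make the intervals too narrow.

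Genes came from the RefSeq table of GRCm38.p6, the assembly that mm10 represents, and all listed symbols were found. Windows were 1000 bp, and regions more than 1000 bp from every protein-coding gene end went to the nearest such end within 100 kb. All 38 members are named, with the 5 strongest genes of each further list, of which some are not reported here; other named genes were chosen after their values were seen. Members and lists were chosen with earlier results of these data known. Placement was tested on simulated data. Alternatives were windows of 500 and 2000 bp, −log10 q of at least 10, strongest summits, region overlap, limits of 25 and 50 kb and no shared summits. Python 3.11.15, pandas 2.3.3 and SciPy 1.17.1 were used. No paired fit or test was made.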

Additional observations from a re-analysis of the deposited data

How the results depend on the processing

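The count of members with a summit inside the gene or within 1 kb, 19, stayed between 13 and 21 under the 6 alternatives tried. With a 2000 bp window Cd79a and Csf3r were gained, with 500 bp Cd4 and Cd52 were lost, and with −log10 q of at least 10 the genes Cd22, Csf1r, Ikzf1, Mpo, Ms4a1 and Zap70 were lost, leaving 1 B cell gene, while 69.4% of all protein-coding genes kept a summit. Within 2000 bp, 16 members had a summit at an outer end, against 68.8% of all genes, with 2 T and NK cell, 1 B cell and 6 general leukocyte genes among them. Within 2000 bp of a start the count was 7, with 1 T and NK cell and 5 general leukocyte genes. The share of all protein-coding genes with a summit within 2000 bp of a start was not computed. At an end, 0 T and NK cell genes were counted within 500 bp, and 1 B cell gene by overlap of the called region. Cd68 reached 41.0-fold within 2000 bp or by overlap, and Cd79a 53.8-fold by overlap. These wider settings can take in summits of neighbouring genes, and which neighbours lie at those summits was not looked up. The regions away from gene ends fell to 38 with −log10 q of at least 10, with 13 for T and NK cell, 2 for B cell and 11 for myeloid genes. How far the regions assigned to all protein-coding genes fell at that setting was not counted. With the ends of genes of every class set aside, chosen after seeing the data, 55 regions were left. The median strongest fold was 0 with a 500 bp window and with −log10 q of at least 10, 2.90 with a 2000 bp window and 2.67 by region overlap. No paired analysis was possible because the peak list holds no value for a single library. For the same reason no library could be left out. Depth limits detection to places with a pileup of at least 17.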
